A study of Mus musculus with 21 samples.

Results

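The cells described here were Cd34-positive stromal cells of the inflamed mouse colon that carried RNA of Hapln1, Spock3, Opcml, Stmn2 and Sfrp2, and they made up 797 of 11376 barcodes (7.01%, exact 95% binomial interval 6.54 to 7.49) of 1 single-cell library. A barcode counted as a member when it held at least 1 UMI (a counted RNA molecule) of Cd34, at least 1 UMI of at least 3 of the 5 marker genes, fewer than 3 UMIs of Cxcl13 and no UMI of Ebf1. The members were therefore chosen on measured RNA, and the levels of those 8 genes describe the choice and test nothing. All comparisons below are between groups of cells in 1 library. Cells of 1 library are not replicates, so no test and no p-value was possible, intervals cover counting error only, and the spread between mice is unknown.

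Fibroblasts of the colon lamina propria build the collagen matrix under the epithelium and send Wnt, BMP and growth factor signals to it. Cd34, a surface sialomucin, marks fibroblasts that lie away from the crypt tops, around vessels and in the deeper layers. The 5 marker genes are best known elsewhere: Hapln1 encodes a link protein that ties proteoglycans to hyaluronan in cartilage, Spock3 a testican (a proteoglycan of the extracellular matrix) found in brain, Opcml an IgLON adhesion protein of neurons, Stmn2 a stathmin that binds tubulin in growing axons, and Sfrp2 a secreted protein that binds Wnt ligands.

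C57BL/6 mice gave all 21 samples of the study, which fall into 9 groups. The single-cell library came from the colon of wild-type female mice aged 12 weeks at D3 of treatment with 2% DSS (dextran sulphate sodium, a drinking-water irritant of the colon epithelium), and its cells were described as total gp38+ CD90+ iMSC, gp38 being the protein of Pdpn and CD90 that of Thy1. ATAC-seq, which cuts and tags open chromatin, was made from male mice aged 12 weeks for 4 sorted populations with 2 libraries each: MRISC, CD34 SP, CD138 (CD34-negative and CD138-positive) and Myofibroblast, all sorted as gp38-positive cells without CD45, Epcam and CD31. The sources used here do not give the antibodies that define MRISC and CD34 SP or the number of mice behind the single-cell library, and the 12 bulk colon samples (wild type and Map3k2-/-) are not analysed here. No untreated single-cell library was analysed, so nothing below separates an effect of DSS from the state of healthy cells.

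The members were deeper than the rest, at medians of 7097 UMIs and 2520 genes in a barcode, against 5957 UMIs and 2267 genes in the 10579 other kept barcodes, and a rule that asks for 3 genes with a UMI favours deep barcodes. The others were divided into 1182 barcodes with Cd34 and at least 3 UMIs of Cxcl13 (called Cd34 Cxcl13 barcodes, median 5845 UMIs), 1172 with Cd34 and Ebf1 and fewer Cxcl13 UMIs (Cd34 Ebf1 barcodes, median 6448.5), 5252 with Cd34 alone (median 6090) and 2973 with no Cd34 UMI (median 5578). Levels are given as pooled CPM, the UMIs of a gene summed over a group and scaled to the same total in every group, and a ratio is the quotient of 2 such levels with its exact 95% interval from the Poisson counts.

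Of the marker genes, Stmn2 stood at 266 CPM in the members and 37.2 CPM in the others, Spock3 at 175 and 24.7 CPM, Hapln1 at 145 and 18.6 CPM, Opcml at 109 and 15.3 CPM, and Sfrp2 at 529 and 130 CPM. Cd34 stood at 681 CPM in the members, close to the 657 CPM of Cd34 Ebf1 barcodes and above the 521 CPM of Cd34 Cxcl13 barcodes. Among the other groups, Sfrp2 was next highest in Cd34 Cxcl13 barcodes (233 CPM) and Opcml in Cd34 Ebf1 barcodes (36.5 CPM), whereas Hapln1 (25.2 CPM), Spock3 (30.8 CPM) and Stmn2 (46.7 CPM) were next highest in the barcodes with Cd34 alone. No single other group was next highest in all 5.

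Few molecules stood behind each choice. A UMI of Sfrp2 was found in 84.7% of the members, of Spock3 in 70.5%, of Hapln1 in 67.9%, of Opcml in 57.7% and of Stmn2 in 57.3%, and the highest count in a single member was 38 for Sfrp2, 18 for Stmn2, 10 for Spock3, 8 for Hapln1 and 5 for Opcml. The same shares in the other barcodes were 23.6%, 10.1%, 8.50%, 7.84% and 7.34%, and in 23 epithelium-like barcodes that were not members, a cell type that should lack these genes, at a far greater depth (median 20061 UMIs), 30.4%, 4.35%, 8.70%, 4.35% and 8.70%. After every barcode was thinned to 3000 UMIs, the shares in the members were 65.5%, 39.4%, 38.7%, 28.8% and 41.2%, in the other barcodes 16.6%, 5.58%, 4.87%, 4.13% and 5.19%, and in the epithelium-like barcodes 0% for all but Stmn2 (1 barcode, 4.55%, 0.115 to 22.8). Thinning left out 8 members and 728 other barcodes with fewer UMIs, and left 22 of the epithelium-like barcodes. A count of 0 in 22 barcodes allows a share of up to 13.64%. The 16.6% for Sfrp2 in the other barcodes lay above that limit. The low shares of Spock3, Hapln1 and Opcml lay below it, and the share of Stmn2 lay within its interval, so these 4 could not be told from free RNA. The epithelium-like barcodes were thinned from a far greater depth, and before thinning their share for Sfrp2 (30.4%) was above that of the others (23.6%). Whether Sfrp2 in the other barcodes was free RNA was therefore not tested.

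Members with exactly 3 of the 5 markers numbered 544, those with 4 numbered 202 and those with all 5 numbered 51. The most frequent exact combination was Hapln1, Spock3 and Sfrp2 with 113 members (14.2%), followed by Hapln1, Opcml and Sfrp2 with 83 and by Spock3, Stmn2 and Sfrp2 with 77. Each marker was also higher in barcodes chosen without it, with the rule's limits on Cd34, Ebf1 and Cxcl13 kept. The rest were all other kept barcodes, so these ratios also carry the choice by those genes and describe it. Where the other 4 markers chose the barcodes, at least 3 of the 4 being required, Hapln1 stood at 95.02 CPM in the 463 chosen and 25.6 CPM in the rest, a ratio of 3.71 (3.30 to 4.16). The ratio was 3.86 for Spock3, 3.48 for Opcml, 3.44 for Stmn2 and 2.80 for Sfrp2 (427 and 153 CPM). The chosen barcodes were again deeper, with medians between 7030 and 7372.5 UMIs against 5988 to 6006.5 in the rest.

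The genome sequence around the 5 genes was read at open chromatin of the CD34 SP population, the sorted cells nearest by label to the members. For each gene the highest-scored CD34 SP peak outside exons, within the gene body and 10 kb on both sides, is shown by its central 300 bases on the plus strand of mm10 (GRCm38.p6), since these are the stretches at which the marker genes can be inspected for shared words. Hapln1 lies at chr13:89539796-89611652, and its peak (printed chr13:89585154-89585453) lies in an intron 45508 bases after the transcription start. Spock3 lies at chr8:62951009-63357103, and its peak (printed chr8:63221624-63221923) lies in an intron. Opcml lies at chr9:27790775-28925410, and its peak (printed chr9:28120664-28120963) lies in an intron. Stmn2 lies at chr3:8509360-8561606, and its peak (printed chr3:8510975-8511274) lies in an intron 1765 bases after the start. Sfrp2 lies at chr3:83766321-83774316, and its peak (printed chr3:83764235-83764534) lies outside the gene, at -1936 bases from the start. All 5 genes are on the plus strand. Capitals mark matches to 6 short words searched on both strands.
Hapln1: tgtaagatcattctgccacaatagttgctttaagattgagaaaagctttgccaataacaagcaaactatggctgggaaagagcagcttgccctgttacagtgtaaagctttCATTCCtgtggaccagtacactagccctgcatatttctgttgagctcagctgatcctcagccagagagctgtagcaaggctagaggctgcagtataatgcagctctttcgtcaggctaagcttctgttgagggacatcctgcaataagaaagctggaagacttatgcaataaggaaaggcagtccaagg
Spock3: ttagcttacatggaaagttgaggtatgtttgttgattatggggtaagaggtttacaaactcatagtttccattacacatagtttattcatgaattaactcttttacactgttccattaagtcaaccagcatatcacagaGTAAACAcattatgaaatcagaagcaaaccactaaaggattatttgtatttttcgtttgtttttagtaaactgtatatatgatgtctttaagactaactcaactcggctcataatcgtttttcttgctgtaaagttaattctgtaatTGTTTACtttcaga
Opcml: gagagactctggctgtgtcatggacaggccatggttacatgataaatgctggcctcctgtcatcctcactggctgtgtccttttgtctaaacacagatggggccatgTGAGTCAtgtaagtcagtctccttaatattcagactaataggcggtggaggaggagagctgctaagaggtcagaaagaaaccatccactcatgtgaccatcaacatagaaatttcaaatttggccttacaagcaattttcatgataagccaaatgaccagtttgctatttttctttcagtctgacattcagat
Stmn2: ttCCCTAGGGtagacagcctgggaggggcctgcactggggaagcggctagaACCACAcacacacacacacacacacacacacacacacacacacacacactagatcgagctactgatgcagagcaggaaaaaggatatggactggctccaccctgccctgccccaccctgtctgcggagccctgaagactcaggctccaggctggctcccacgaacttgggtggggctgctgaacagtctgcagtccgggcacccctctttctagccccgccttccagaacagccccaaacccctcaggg
Sfrp2: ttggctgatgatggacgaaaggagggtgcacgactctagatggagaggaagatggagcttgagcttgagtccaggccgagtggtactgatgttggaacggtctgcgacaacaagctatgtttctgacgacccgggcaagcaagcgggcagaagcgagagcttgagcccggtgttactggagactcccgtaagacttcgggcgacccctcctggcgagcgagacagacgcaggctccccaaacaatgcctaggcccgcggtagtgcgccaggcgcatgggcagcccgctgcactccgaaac

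The words were TGANTCA (AP-1), GGAATG (TEAD), TGTGGT (RUNX), TGTTTAC (forkhead), CCCNNGGG (EBF) and the split palindrome of NFI. The Hapln1 stretch held the TEAD word once, as its reverse complement CATTCC, the Spock3 stretch the forkhead word 2 times, the Opcml stretch the AP-1 word once, and the Stmn2 stretch the EBF and the RUNX word once each. The Sfrp2 stretch held none of the 6 words. No word was found in more than 1 of the 5 stretches. Among 72694 peak centres of the same length in the CD34 SP list, 21.6% held the AP-1 word, 20.5% the RUNX word, 19.4% the TEAD word, 11.7% the EBF word, 5.49% the forkhead word and 1.48% the NFI word, so single matches are frequent. A match is a description of letters and not a bound site.

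The members carried RNA of all 8 fibroblast markers. None of the 8 differed by 2-fold between the members and the others, with summed levels of 20593 and 19538 CPM. The whole library was described as gp38+ CD90+ cells, so this match does not set the members apart. Of the 8 markers, the collagen gene Col3a1 stood at 4618 CPM in the members and 4523 CPM in the others, the proteoglycan gene Dcn at 9894 and 8281 CPM, and the receptor gene Pdgfra at 159 and 154 CPM. Pdpn was at 296 CPM in the members and 284 in the others, and Thy1 at 249 and 140 CPM, so both genes behind the sort were present. Of 6 tested lamina propria fibroblast markers, Edil3 was at least 2-fold higher and Kcnk2, Adamdec1 and Ces1d lower (summed 6366 and 8523 CPM). Of 7 tested adventitial-like markers outside the rule, Has1, Pi16 and Cd81 were lower and none higher. Of 5 tested crypt-top markers, F3 was lower and none higher. Over all tested genes, 0.498% were higher and 1.94% lower. Markers of muscle summed to 772 CPM in the members and 3292 CPM in the others, pericyte markers to 65.1 and 126 CPM, macrophage and neutrophil markers to 32.1 and 40.6 CPM, and T cell markers to 1.32 and 2.77 CPM. Some lists were slightly higher in the members: markers of the interstitial cells of Cajal summed to 320.1 and 265 CPM and those of blood endothelium to 29.0 and 26.1 CPM, of which Cdh5, Kdr and Flt1 had 0 UMIs in the members, while the leukocyte gene Ptprc had 0 UMIs in the members.

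Stmn2 and Opcml are neuronal genes, so neuronal and glial RNA was read beside them. The enteric neuron markers summed to 271 CPM in the members against 48.8 CPM in the others, but Stmn2 is on that list and held 266 of the 271 CPM. The neuron genes Elavl4 and Snap25 had 0 UMIs in the 797 members, Uchl1 and Gap43 had 0.165 CPM each and Tubb3 3.96 CPM, below its 7.45 CPM in the others. The glial genes S100b, Sox10 and Gfap also had 0 UMIs, and the glial list summed to 77.3 CPM in the members and 137 CPM in the others. Of 19 genes of neuronal cytoskeleton and synapse, 2 reached 20 CPM outside the rule, and of these Cntn1, an axonal adhesion protein, was higher in the members (36.1 and 17.6 CPM, ratio 2.05, 1.77 to 2.37). Over all tested genes, 0.498% were at least 2-fold higher, and 2 tested genes are too few to set beside that share.

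The families of the markers did not follow them. Hapln2, Hapln3 and Hapln4, the other link proteins, had 0 UMIs in the members, as had Spock1 and the IgLON gene Ntm. Spock2 stood at 2.14 CPM in the members and 2.53 CPM in the others, Lsamp at 1.48 and 8.29 CPM, and Negr1, a further IgLON gene, at 97.3 and 87.8 CPM. Stmn1, a stathmin of dividing cells, stood at 15.8 and 26.1 CPM, Stmn3 at 0.165 and 0.135 CPM, and Stmn4 at 1.65 and 2.68 CPM. Of the proteins related to Sfrp2, Sfrp1 was the abundant one in every group, at 599 CPM in the members and 791 CPM in the others, and Sfrp4 was scarce in the members, at 3.96 CPM against 42.5 CPM in the others and 245 CPM in Cd34 Ebf1 barcodes. Sfrp5 had 0 UMIs in the members, and Frzb stood at 24.4 and 41.4 CPM. Hyaluronan genes, whose product the link protein binds, were read beside it: the synthase gene Has1 was at 15.002 CPM in the members and 94.3 CPM in the others, and the hyaluronan-binding proteoglycan gene Vcan at 310 and 219 CPM.

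Outside the rule genes, 6026 genes reached 20 CPM in the members or in the others, and 30 of them (0.498%) were at least 2-fold higher and 117 (1.94%) at least 2-fold lower in the members. The median log2 ratio over all 6026 genes was -0.01. Since the members were chosen by RNA of these same cells, the counts describe the group and support nothing. Counts against different groups share the members and, for the count against all others, the other groups too.

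**Figure D1:**
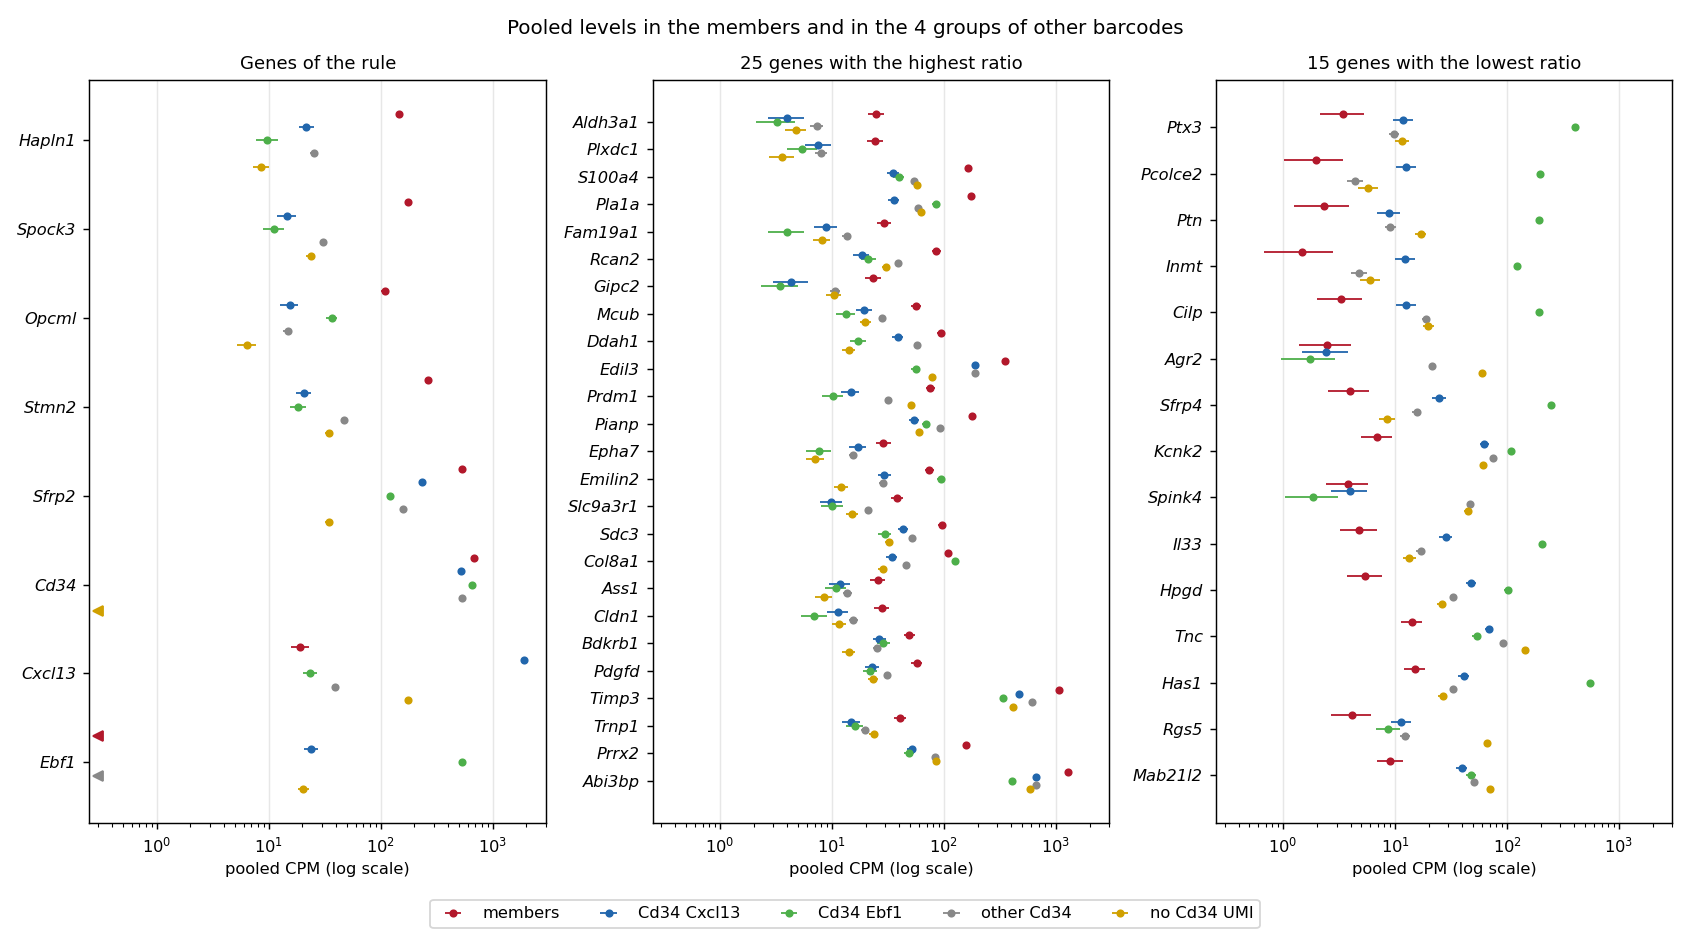
Pooled CPM on a log axis for the 8 rule genes, the 25 genes with the highest and the 15 with the lowest ratio of members to all others. Points are the members and the 4 groups of other barcodes, bars are exact 95% Poisson intervals (counting error only), and left-pointing triangles stand for 0 UMIs. Emilin2 and Col8a1 are the genes of the middle panel in which Cd34 Ebf1 barcodes lie above the members, and Ptx3 reaches 407 CPM in Cd34 Ebf1 barcodes against 3.46 CPM in the members.

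Enzymes and signalling proteins were among the genes with the highest ratios. Aldh3a1, an aldehyde dehydrogenase, had the highest ratio, at 24.9 CPM in the members and 5.77 CPM in the others (4.31, 3.55 to 5.22). S100a4, a calcium-binding protein long used as a fibroblast marker, stood at 166 and 51.0 CPM (3.24, 3.02 to 3.48), and Pla1a, a phospholipase that acts on phosphatidylserine, at 176 and 59.8 CPM (2.95, 2.75 to 3.16). Aldh3a1 was low everywhere else, from 3.22 CPM in Cd34 Ebf1 barcodes to 7.31 CPM in the barcodes with Cd34 alone. Rcan2, an inhibitor of calcineurin, stood at 85.7 and 32.1 CPM, and Mcub, a subunit of the mitochondrial calcium channel, at 56.7 and 23.1 CPM. Ddah1, which breaks down inhibitors of nitric oxide synthase, stood at 94.1 and 39.1 CPM, and Ass1, an enzyme of arginine synthesis, at 25.6 and 11.8 CPM. Bdkrb1, a bradykinin receptor gene, stood at 49.3 and 22.9 CPM.

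Several of the 25 are secreted or matrix proteins. Edil3, an integrin ligand, stood at 349 CPM in the members and 145 CPM in the others (2.40, 2.29 to 2.52), Timp3, an inhibitor of matrix proteases, at 1070.4 and 509 CPM (2.10, 2.05 to 2.16), and Abi3bp, a matrix protein, at 1273 and 617 CPM (2.07, 2.02 to 2.12). Pdgfd, a PDGF ligand, stood at 57.0 and 27.1 CPM. The matrix genes Emilin2 (73.9 and 32.2 CPM) and Col8a1 (110 and 49.9 CPM) were higher than in all others together, yet Cd34 Ebf1 barcodes held more of both, with 94.2 and 127 CPM. Other surface and guidance genes among the 25 were Plxdc1, Epha7, Sdc3 and Cldn1, with ratios of 3.71, 2.30, 2.22 and 2.16. Prdm1, a transcriptional repressor of the zinc finger class, stood at 75.7 and 32.1 CPM (2.35), and Prrx2, a homeobox gene of mesenchyme, at 157 and 75.8 CPM (2.07).

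Several of the genes lowest in the members were highest in Cd34 Ebf1 barcodes. Ptx3, a soluble pattern recognition protein, stood at 3.46 CPM in the members, 58.4 CPM in all others and 407 CPM in Cd34 Ebf1 barcodes. Il33, a cytokine released by damaged cells, stood at 4.78, 40.2 and 207 CPM in the same order, and the matrix gene Cilp at 3.30, 39.2 and 192 CPM. In each of these the barcodes with Cd34 alone and those with no Cd34 UMI were also above the members, at 9.77 and 11.6 CPM for Ptx3 and at 16.9 and 13.4 CPM for Il33. A different pattern was seen for Kcnk2, a potassium channel gene, which stood at 6.92 CPM in the members and between 60.8 and 109 CPM in every other group. Tnc, a matricellular protein, likewise stood at 14.2 CPM against 53.6 to 145 CPM, and Mab21l2 at 9.07 CPM against 39.5 to 70.9 CPM. Agr2 and Spink4, both genes of goblet cells, were also among the 15 (2.47 and 26.6 CPM, 3.79 and 35.7 CPM). They depended on the few epithelium-like barcodes, and with the others restricted to barcodes with Pdgfra and without Ptprc, Epcam or Pecam1 the ratios were 1.04 for Agr2 and 1.20 for Spink4.

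Against Cd34 Cxcl13 barcodes, 61 of 5955 genes (1.02%) were at least 2-fold higher and 80 (1.34%) at least 2-fold lower in the members, with a median log2 ratio of 0.02. Aldh3a1 (24.9 and 3.96 CPM, ratio 6.29), Prdm1 (75.7 and 14.7 CPM, 5.15), Pla1a (176 and 35.5 CPM, 4.96) and S100a4 (166 and 35.1 CPM, 4.71) led again. Tmem158 followed with 190 and 51.0 CPM. Of 13 tested chemokines, Ccl19 and Ccl11 were at least 2-fold lower and Cxcl2 (61.8 and 25.7 CPM) at least 2-fold higher. Ccl19, a ligand for lymphocytes and dendritic cells, stood at 4.62 CPM in the members and 26.2 CPM in Cd34 Cxcl13 barcodes. Ccl11, which attracts eosinophils, stood at 237 and 872 CPM. Kcnk2 (6.92 and 62.8 CPM), Hpgd, which inactivates prostaglandins (5.44 and 47.8 CPM), and Foxp2, a forkhead factor (3.79 and 24.8 CPM), were lower too. The epithelial gene Reg3b was among the 12 highest (38.6 and 9.20 CPM), and 1 member held 186 of the 234 Reg3b UMIs of all members. The ratio was 0.877 without the members above 14194 UMIs, and 0.787 without barcodes of the clusters led by muscle, immune, mesothelial or epithelial genes.

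Against the barcodes with Cd34 alone, the largest group and the one that holds barcodes just short of the rule, 18 of 6009 genes (0.3%) were at least 2-fold higher and 68 (1.13%) at least 2-fold lower in the members, with a median log2 ratio of -0.02. Aldh3a1 (24.9 and 7.31 CPM), S100a4 (166 and 53.9 CPM) and Plxdc1 (24.2 and 8.05 CPM) were higher. Kcnk2 (6.92 and 74.2 CPM), Tnc (14.2 and 91.5 CPM) and Aspn, a small leucine-rich proteoglycan (75.0 and 407 CPM), were lower. Of 7 muscle markers, 5 were at least 2-fold lower, among them Tagln (175 and 516 CPM) and Acta2 (311 and 799 CPM), the smooth muscle actin gene.

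Of the 3 groups with Cd34, the Cd34 Ebf1 barcodes had the most genes past 2-fold: 218 of 6031 genes (3.61%) were at least 2-fold higher and 265 (4.39%) at least 2-fold lower in the members, with a median log2 ratio of 0.12. Ligands of the Wnt, BMP and EGF families were among the higher genes. Wnt4, a Wnt ligand, stood at 335 and 60.4 CPM (ratio 5.55), Wnt5b at 172 and 46.6 CPM (3.68), Bmp7 at 40.2 and 8.18 CPM (4.92), and Ereg, a ligand of the EGF receptor, at 545 and 170 CPM (3.21). Ahr, the receptor for aromatic ligands, stood at 33.8 and 5.21 CPM (6.49), the heparan sulphate cleaving enzyme gene Hpse at 411 and 84.9 CPM (4.84), and the homeobox gene Isl1 at 97.6 and 21.0 CPM (4.66). Ackr4, a chemokine scavenger, had 0 UMIs in the members and 50.6 CPM in Cd34 Ebf1 barcodes, at least 102-fold lower against a floor of 3 UMIs over the members, and Cmah, a sialic acid enzyme, also had 0 UMIs (41.2 CPM, at least 83.2-fold lower). The transcription factor genes Osr2 (0.330 and 38.9 CPM) and Ebf2 (0.330 and 27.5 CPM) had 2 UMIs each in the members.

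**Figure D2:**
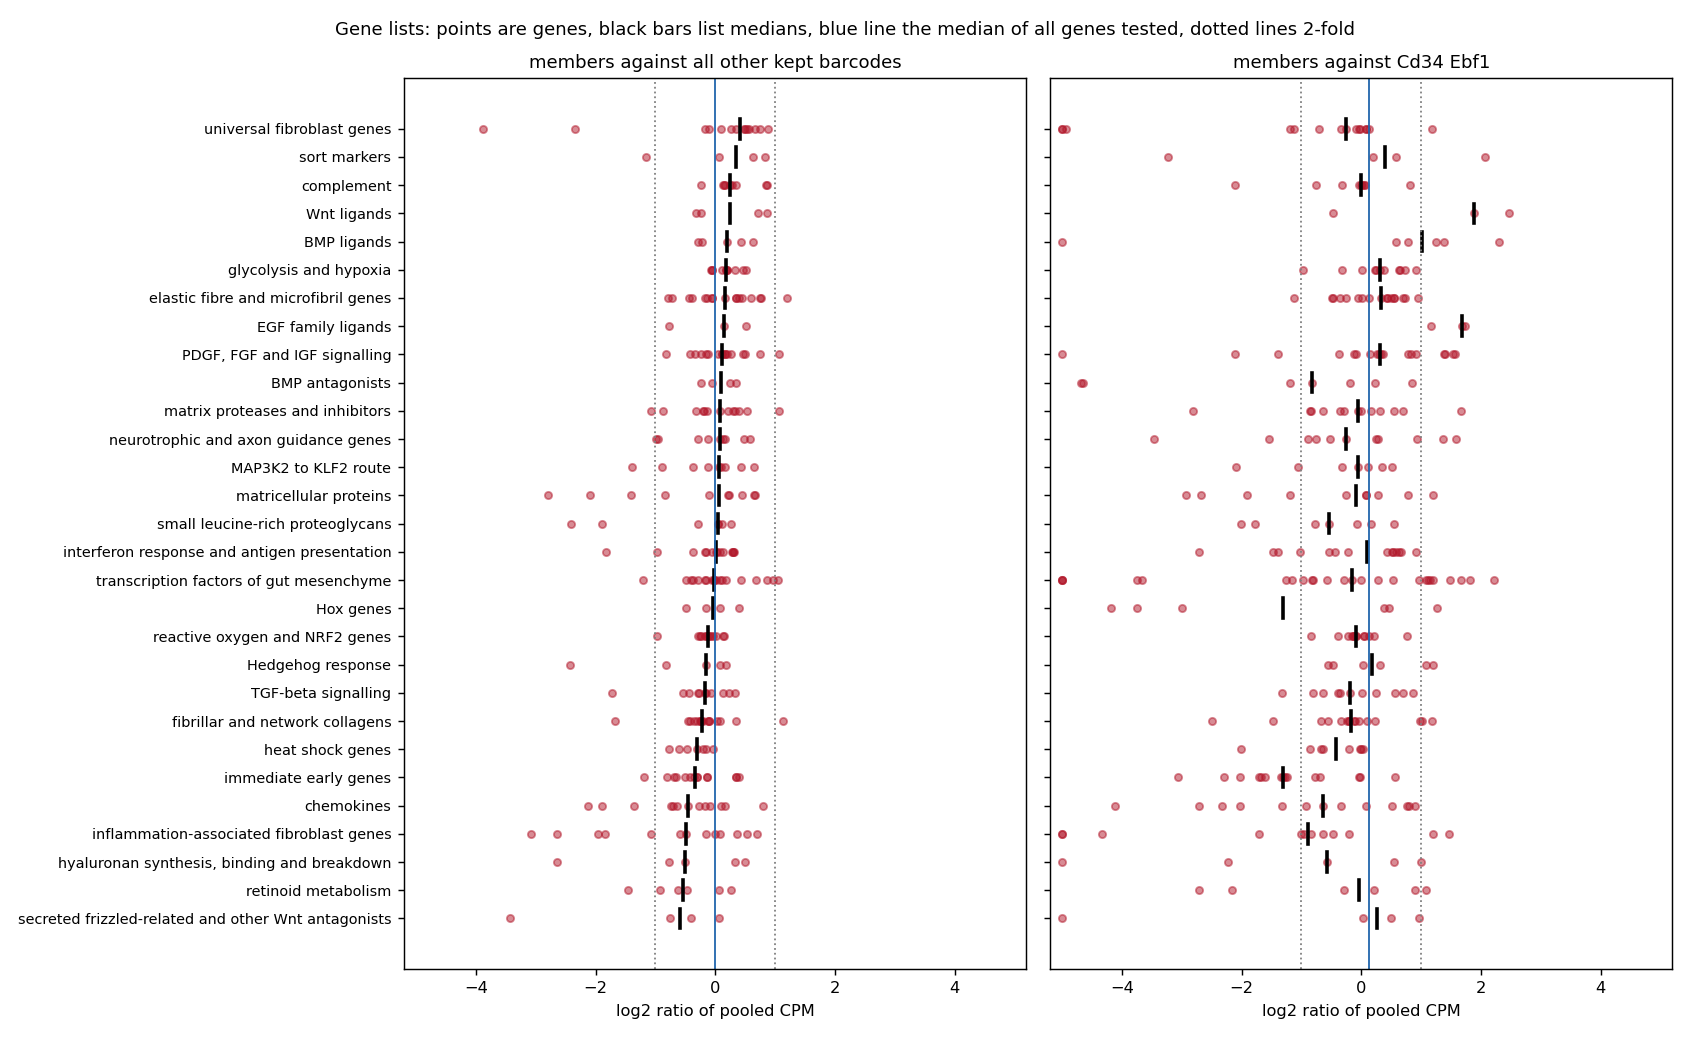
Log2 ratio of pooled CPM of members to all other kept barcodes (left) and to Cd34 Ebf1 barcodes (right) for gene lists with at least 3 tested genes. Points are genes, black bars list medians, the blue line the median of all genes tested and dotted lines 2-fold. Ratios beyond -5 are drawn at -5, and genes with 0 UMIs in the members are not drawn. In the comparison with Cd34 Ebf1 barcodes the list medians of Wnt, BMP and EGF family ligands lie to the right, with 1 BMP ligand, Gdf10, far to the left, and the median of the immediate early genes lies to the left.

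By pathway, few lists moved against all others. Over all tested genes, 0.498% were at least 2-fold higher and 1.94% lower against all others. Against Cd34 Ebf1 barcodes these shares were 3.61% and 4.39%. Of 4 tested Wnt ligands none passed 2-fold (median log2 ratio 0.24), with Wnt4 at 335 and 185 CPM and Wnt5b at 172 and 104 CPM. The R-spondins, which amplify Wnt signals, were low: Rspo3 stood at 5.44 CPM against 24.2 CPM and Rspo1 at 12.5 CPM against 29.5 CPM, both at least 2-fold lower and the only ones tested. Against Cd34 Ebf1 barcodes, 2 of 3 Wnt ligands were at least 2-fold higher (median 1.88) and 2 of 2 R-spondins lower (median -2.94), with Rspo3 at 78.4 CPM there. Of 4 tested Wnt antagonists other than Sfrp2, Sfrp4 alone was 2-fold lower in each of these comparisons.

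BMP ligands gave 0 of 5 genes past 2-fold against all others and 3 of 6 higher and 1 lower against Cd34 Ebf1 barcodes: Bmp7, Bmp5 (83.4 and 31.9 CPM) and Bmp4 (985 and 413 CPM) were higher and Gdf10 (0.824 and 70.7 CPM) lower. Antagonists of BMP moved the other way in that comparison, with 3 of 7 at least 2-fold lower and none higher. These were Fst (2.31 and 59.4 CPM), Bmper (0.989 and 24.9 CPM) and Grem1 (159 and 362 CPM). All 3 tested EGF family ligands, Areg, Ereg and Nrg1, were at least 2-fold higher than in Cd34 Ebf1 barcodes, and none was against all others, where Nrg1 stood at 90.5 CPM in the members and 155 CPM in the others.

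Matrix genes were mostly level. Of 16 collagen genes, Col8a1 was at least 2-fold higher and Col6a3 lower (48.6 and 156 CPM) against all others, with a list median of -0.22. Of 7 small leucine-rich proteoglycans, Aspn (75.0 and 400.2 CPM) and Podn (19.1 and 71.0 CPM) were lower and none higher. Of 10 matricellular genes, Tnc, Thbs1 (59.0 and 156 CPM) and Thbs2 (5.44 and 23.2 CPM) were lower and none was higher, while Fn1, the fibronectin gene, stood at 1283 and 821 CPM and Postn, a periostin gene, at 1432 and 1053 CPM. Of 14 tested genes shared by fibroblasts of many organs, none was 2-fold higher and Pi16 and Pcolce2 were lower, with a list median of 0.41, the highest of the lists with at least 3 tested genes. Within that list Clec3b stood at 2955 and 2002 CPM and Cd248 at 328 and 178 CPM.

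Against all others, no tested chemokine and no tested gene linked to inflamed fibroblasts was 2-fold higher. Of 13 tested chemokines, 3 were at least 2-fold lower than in all others and none higher: Ccl19, Cxcl14 (66.6 and 248 CPM) and Ccl11 (237 and 609.7 CPM). Of 13 genes linked to inflamed fibroblasts, 5 were lower and none higher, among them Il6 (10.4 and 40.5 CPM), Saa3 (183 and 383 CPM) and Lcn2 (6.76 and 24.3 CPM), while Ptgs2, the inducible cyclooxygenase gene, stood at 187 and 115 CPM. Against single groups some were at least 2-fold higher: Ptgs2 against Cd34 Cxcl13 (57.7 CPM) and Cd34 Ebf1 barcodes (67.8 CPM), Il11 against Cd34 Ebf1 barcodes (32.0 and 14.0 CPM), and Cxcl2 (61.8 and 21.8 CPM) and Mmp3 (65.4 and 19.9 CPM) against the barcodes with Cd34 alone. The Mmp3 level rested on 1 member, without which it was 12.2 CPM. Complement genes gave 0 of 9 past 2-fold, with C4b at 1534 and 853 CPM. Tnfsf13b, the B cell survival factor gene BAFF, stood at 543 CPM in the members, 426 CPM in Cd34 Cxcl13 barcodes and 131 CPM in Cd34 Ebf1 barcodes.

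Against Cd34 Ebf1 barcodes, 10 of 15 immediate early genes were at least 2-fold lower in the members and none higher, with a median of -1.31. Over all tested genes, 4.39% were lower and 3.61% higher in that comparison. Fos stood at 2299 and 5544 CPM, Egr1 at 540.1 and 1717 CPM, and Atf3 at 179.7 and 1496 CPM. These genes respond to tissue digestion as well as to stimuli in the animal, and the part of sample handling was not tested. Against Cd34 Cxcl13 barcodes, 1 of 14 (Ier3) was higher and none lower. Of 9 tested genes of the route from MAP3K2 to KLF2, Mef2c was 2-fold lower than in all others (7.91 and 20.8 CPM), Map3k2 stood at 38.1 and 36.5 CPM and its downstream gene Klf2 at 504 and 929.9 CPM.

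Over all tested genes, 3.61% were at least 2-fold higher and 4.39% lower in the members than in Cd34 Ebf1 barcodes. Of 25 tested transcription factors, 8 were higher and 7 lower in that comparison. The higher ones were Isl1, Runx2, Prrx2, Tcf21, Foxf2, Osr1, Nr2f1 and Foxf1, of which Tcf21, a factor of gut mesenchyme, stood at 1724 and 620.5 CPM. Among the lower ones were Osr2, Ebf2, Prrx1, Wt1, Foxp2 and Meis1. Against all others only Prrx2 was higher and only Runx1 lower (12.2 and 28.1 CPM) among 19 tested. Genes of surface proteins differed too. Cd81, used as a surface marker of a Cd34 subset, stood at 73.2 CPM in the members, 149 CPM in Cd34 Cxcl13 and 685 CPM in Cd34 Ebf1 barcodes. Sdc1, the gene of CD138, stood at 155 CPM in the members, 70.5 CPM in Cd34 Cxcl13, 37.1 CPM in Cd34 Ebf1 and 147 CPM in barcodes with no Cd34 UMI. In the barcodes with Cd34 alone, Sdc1 stood at 71.8 CPM with 0 of the markers, 97.5 CPM with 1 and 156 CPM with 2.

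The summed level of the 25 highest genes rose with the number of markers on both sides of the rule's threshold. The levels are pooled and the markers sparsely detected, and whether a class mixes unlike cells was not tested. Among Cd34 barcodes without Ebf1 and with fewer than 3 Cxcl13 UMIs, the summed level of the 25 genes with the highest ratio stood at 1612 CPM in the 2649 barcodes with none of the 5 markers, 2356 CPM in the 1633 with 1 and 3395 CPM in the 970 with 2, the last class outside the rule. Inside it stood at 4162 CPM with 3 markers, 4623 CPM with 4 and 4788 CPM with 5. The 15 lowest genes summed to 617, 377 and 140 CPM outside and to 81.3, 87.5 and 70.4 CPM inside. Aldh3a1, for example, stood at 3.32 CPM with no marker, 16.9 CPM with 2, 21.8 CPM with 3 and 44.6 CPM with 5, and Pla1a at 34.6, 117, 159 and 277 CPM. The class with 5 markers held 51 barcodes and 19 UMIs of Aldh3a1. Timp3 and Abi3bp weighed most in the sum, at 1237 and 1507 CPM with 5 markers. Not every gene rose from 4 markers to 5. S100a4 stood at 206 and 143 CPM, Bdkrb1 at 67.6 and 30.5 CPM and Ass1 at 28.4 and 9.39 CPM. Median depth was also higher with more markers, from 5841 UMIs with none to 7482 with 4, and was 7362 UMIs with 5. These genes were chosen by the same contrast, so the order is a description.

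**Figure D3:**
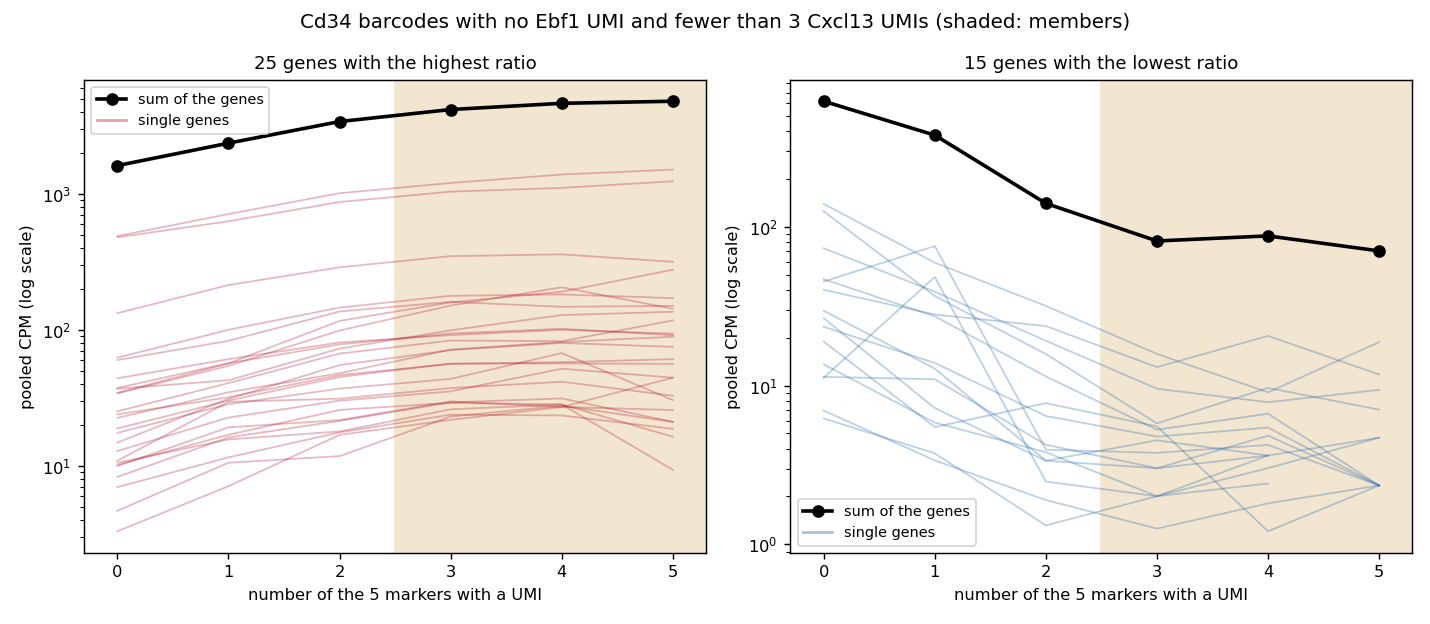
Pooled CPM on a log axis of the 25 genes with the highest and the 15 with the lowest ratio, by the number of the 5 markers with a UMI, in Cd34 barcodes without Ebf1 and with fewer than 3 Cxcl13 UMIs. Thin lines are genes, black lines their sums, the shaded classes are the members, and a gene with 0 UMIs in a class has no point there. The sum of the 25 genes stands at 3395 CPM with 2 markers and 4162 CPM with 3.

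Barcodes near the other limits were few. The members as a whole stood at 4332 CPM for the 25 genes and 82.3 CPM for the 15. With 2 UMIs of Cxcl13 (inside, 14 barcodes) the 25 genes summed to 3404 CPM and the 15 to 138 CPM, and with 3 UMIs (outside, 6 barcodes) to 3354 and 66.1 CPM. The 23 barcodes with at least 3 markers and no Cd34 UMI gave 3417 and 92.9 CPM. The 40 barcodes with at least 3 markers and a UMI of Ebf1 gave 3108 and 1689.8 CPM, the highest level of the 15 genes among these classes.

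Clustering of all kept barcodes on variable genes, with the 8 rule genes left out, put 626 of the 797 members (78.5%, 75.5 to 81.3) into 1 of 11 clusters. That cluster held 2528 barcodes, so members were 24.8% of it. Spock3, Hapln1, Aldh3a1, Stmn2, Opcml and Sfrp2 led its genes by fold. The 5 markers among these had no part in the clustering. The members in the cluster were chosen for RNA of those 5, so their lead partly describes the choice. The 1902 other barcodes of the cluster carried the pattern more weakly, with 3210 CPM for the 25 genes against 4545 CPM in its members, and their median depth was 6311.5 against 7092 UMIs. The 171 members elsewhere stood at 3648 CPM and the 8677 other barcodes elsewhere at 1653 CPM. Most of those 171 lay in a Cxcl13-led cluster (81) and in a cluster led by Mmp10 and Nrg1 (48), with 16 in a muscle-led, 10 in an immune-led and 7 in a mesothelium-led cluster. The markers were not level over the barcodes that were not members. Spock3 stood at 72.2 CPM in the 1902 of the cluster and 13.9 CPM in the 8677 elsewhere. In the same order, Hapln1 stood at 46.6 and 12.3 CPM and Stmn2 at 79.8 and 27.5 CPM. Opcml stood at 25.8 and 12.9 CPM and Sfrp2 at 250 and 103 CPM. The part of free RNA in these levels was not tested. Among the 14 nearest neighbours of a member, 34.7% on average were members, against 5.59% among the neighbours of other barcodes and 7.01% of all kept barcodes.

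Across the 9 clusters with at least 50 barcodes, the gene whose level most resembled that of Hapln1 was Aldh3b1 (Pearson r 0.93), followed by Cntn1 and Edil3 (both 0.92). For Stmn2 they were Fam129b (0.95) and Rcan2 (0.94), for Sfrp2 Polr2h (0.90), for Opcml Shisa5 and Scara5 (0.84 each) and for Spock3 Casp1 (0.84). These are descriptions over 9 points of 1 library, picked from 7532 genes, and the points share depth and the clustering.

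Clustered among themselves, the members fell into 4 larger subclusters and 2 small ones. Subcluster 1 (238 members) was highest in the chemokine genes Ccl11 (415 CPM, 160.4 in the other members) and Ccl8 (235 and 96.2 CPM) and lowest of the 4 in Stmn2 (138 CPM). Subcluster 2 (120 members) was highest in S100a4 (332 and 137 CPM), Scara5, a ferritin receptor (171 and 56.4 CPM), Bdkrb1 (112 and 38.6 CPM) and Enpp2, the autotaxin gene (148 and 55.2 CPM), and also in Stmn2 (382 CPM) and Sfrp2 (718 CPM). Of it, 98.3% lay in the leading cluster. Subcluster 3 (110 members) carried inflammatory genes: Cxcl2, a ligand for neutrophils, stood at 346 CPM and 8.04 CPM in the other members, Cxcl5 at 409 and 44.5 CPM, Cxcl10 at 502 and 64.3 CPM, and Ccl2, a ligand for monocytes, at 1126 and 209 CPM. Among the 4 larger subclusters Opcml was lowest there (53.9 CPM), and 57.3% of it lay in the leading cluster. The pooled levels of Cxcl2 and Ccl2 in the members (61.8 and 355 CPM) therefore averaged over unlike cells. Wnt4 was even, between 327 and 353 CPM in the 4 larger subclusters. Since the subclusters were found from these same genes, their leading genes are a description.

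**Figure D4:**
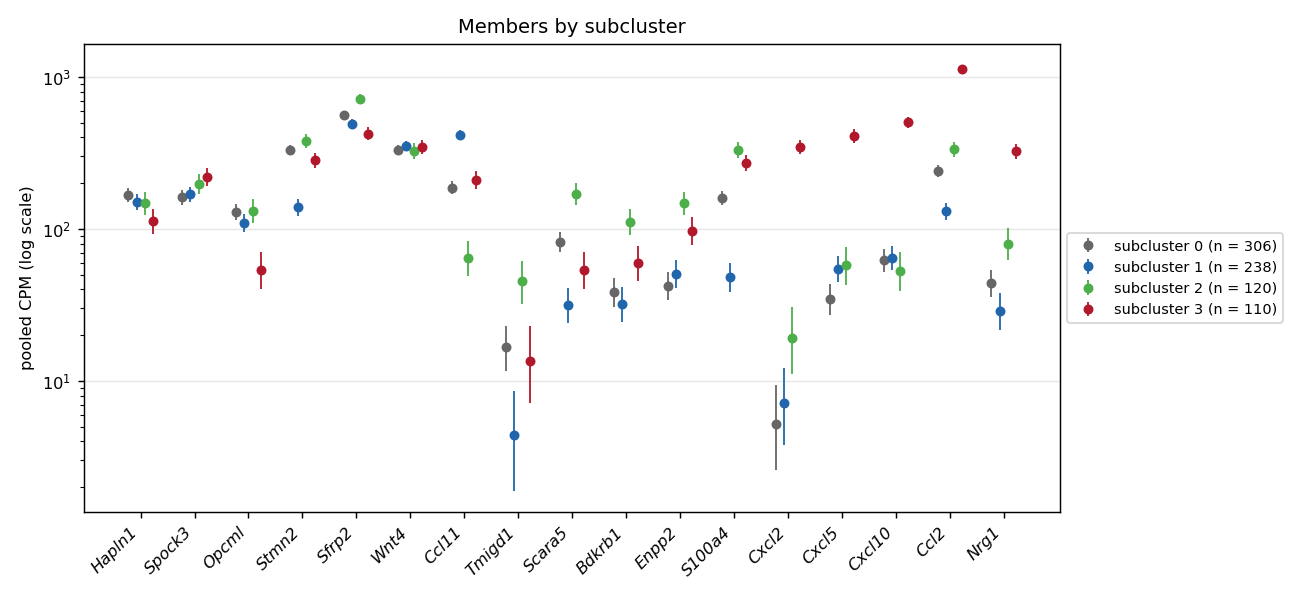
Pooled CPM on a log axis of the 5 markers, Wnt4 and leading genes in the 4 larger subclusters of the members, with exact 95% Poisson intervals (counting error only). The markers lie between 53.9 CPM (Opcml) and 718 CPM (Sfrp2), Wnt4 is even, and Cxcl2, Cxcl5, Cxcl10, Ccl2 and Nrg1 are highest in subcluster 3.

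Single barcodes carried some pooled values. Subcluster 0, the largest (306 members), was led by the epithelial genes Reg3b (96.4 CPM, 7.83 in the other members) and Car1 (37.0 and 1.010 CPM), but 1 member held 186 of the 234 Reg3b UMIs of all members and 77 of the 82 Car1 UMIs. That member lay in the epithelium-like cluster, and without it Reg3b stood at 8.18 CPM in subcluster 0 and 6 epithelial genes summed to 16.8 CPM in place of 214 CPM, near the 24.1, 22.6 and 14.5 CPM of subclusters 1, 2 and 3. The same 6 genes summed to 302 CPM in 546978 barcodes with at most 100 UMIs, taken as empty droplets. In subcluster 3, 1 member held 323 of the 397 UMIs of Mmp3, the stromelysin gene, and without it the members stood at 12.2 CPM in place of 65.4 CPM. None of the 25 genes with the highest ratio to all others had more than 5.60% of its UMIs in 1 member. The 16 members of subcluster 4 (median 12530 UMIs) carried smooth muscle genes, with Tagln at 3928 CPM, and the 7 of subcluster 5 (median 11282 UMIs) mesothelial genes, with Upk3b at 944 CPM. Both were deeper than the members as a whole, 22 members (2.76%) exceeded 14194 UMIs, and whether such barcodes held more than 1 cell was not tested. At least 2 UMIs of 6 cycling genes were found in 3 members (0.376%) and in 97 others (0.917%).

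Open chromatin gave a readout that the rule did not use, in other cells, of male mice. Peaks were counted in the windows (gene body and 10 kb on both sides) of 26 genes: the 5 markers, Cd34 and the 20 leading genes. Of 1577 peaks in these windows over the 4 populations, CD34 SP held 356 (22.6%, 20.5 to 24.7), MRISC 389 (24.7%), CD138 464 (29.4%) and Myofibroblast 368 (23.3%). Over the windows of all 21911 protein-coding genes the shares were 22.2%, 25.9%, 27.9% and 24.0%, and the interval for CD34 SP included its share over all genes. That depended on the setting. With 50 kb on both sides the CD34 SP share was 24.1% (22.4 to 25.8) against 22.3% over all genes, and with peaks above the median score of their list alone it was 24.6% (21.7 to 27.6) against 21.0%, both intervals above the share over all genes. In gene bodies alone it was 22.7% (20.4 to 25.1) against 21.7%. Peaks of 1 gene are not independent, so these intervals are too narrow. Each population came as 1 peak list, so there was no spread between its 2 libraries.

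Single genes differed. Sfrp2 had 6 peaks in CD34 SP, 3 in MRISC, 3 in CD138 and 1 in Myofibroblast, or 21.4, 10.7, 10.7 and 3.57 per 100 kb, where the median gene had 8.24, 10.2, 11.3 and 9.83. Hapln1 had 7, 5, 5 and 3 peaks in the same order, of which 4, 1, 3 and 1 were in the authors' lists of specific peaks. The median gene had 4, 5, 5 and 5 peaks and 1, 2, 2 and 2 specific ones. Spock3 had 8, 5, 15 and 10 peaks, Opcml 39, 48, 90 and 75, and Stmn2 5, 3, 4 and 6, so CD34 SP was not highest for these 3 genes. Within 1 kb of the transcription start, CD34 SP had a peak at all 5 markers (2, 2, 1, 2 and 1 for Hapln1, Spock3, Opcml, Stmn2 and Sfrp2), MRISC at 4, CD138 at 4 and Myofibroblast at Spock3 alone. The share of all protein-coding genes with such a peak was not counted, so these numbers do not set the markers apart. Aldh3a1 had 3 such peaks in CD34 SP, 1 in MRISC and none in the other two. Of the printed peaks, that of Spock3 overlapped no peak of another population and that of Stmn2 overlapped 1 of CD138. That of Sfrp2 overlapped 1 of MRISC and 1 of CD138, and those of Hapln1 and Opcml overlapped 1 in each. The CD34 SP lists held 143411 total and 49629 specific peaks. The share of all CD34 SP peaks without an overlap was not counted, so these overlaps do not set the markers apart.

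**Figure D5:**
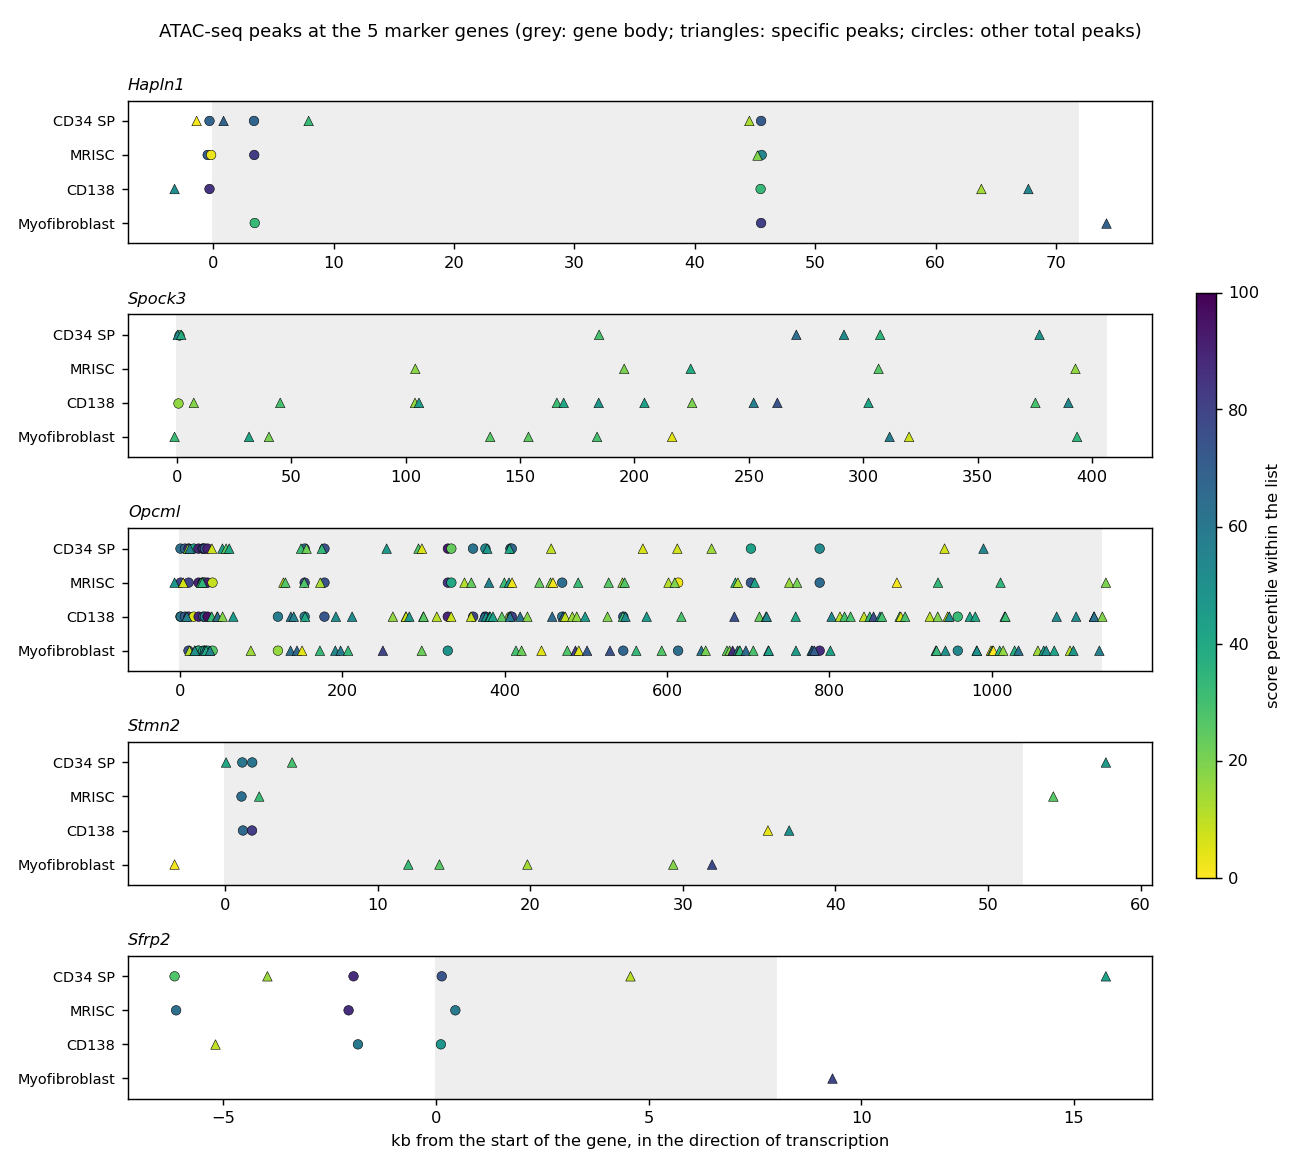
Positions of ATAC-seq peaks in the windows of the 5 marker genes, in kb from the gene start along transcription, for the 4 sorted populations. Grey is the gene body, triangles are peaks of the authors' specific lists, circles other peaks, and colour is the percentile of the authors' score within its list. CD34 SP has peaks near the start of all 5 genes, and Myofibroblast has 1 peak in the whole Sfrp2 window.

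Genes that were low in the members were read in the same lists. Of the 15 genes with the lowest ratio to all others, 9 had fewer peaks in CD34 SP than in MRISC, 2 had as many and 4 had more (Rgs5, Tnc, Agr2 and Has1). Over all 21911 protein-coding genes, 47.9% had fewer and 24.0% more, so the lists differ in this direction in general. Il33 had 8.99 peaks per 100 kb in CD34 SP and 25.2 in MRISC, Has1 84.7 and 69.0, and Ptx3 23.2 in both, where the median gene had 8.24 and 10.2. Of genes chosen after their values were seen, Cd81 had 14.2 and 54.0 and the rule gene Ebf1 5.36 and 22.9. The sorted populations were not matched to the single cells by any measurement here.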

How the data were processed

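The authors deposited a matrix of UMI counts, for which the submitters' processing notes name bcl2fastq, Cell Ranger, Seurat and build mm10 (software 3.0.0 per the file headers; 10x 3' version 2 chemistry per the labels' protocols). The filtered matrix held 11484 barcodes and 31053 genes. Of 108 barcodes left out, 84 had under 500 genes and 82 over 10% mitochondrial UMIs. Each peak in the deposited lists carries a score by the authors, and the notes name bedtools and mm10. What called the peaks, what the score means, what made a peak specific and how 2 libraries became 1 list is not given in the sources used here, so scores only ranked peaks within a list.

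Counts were summed per group and divided by the group's total. Ratios have exact conditional and shares exact Clopper-Pearson 95% intervals, which cover counting error only. A gene was tested for size, with no statistical test, when the higher group had at least 20 CPM, and counted at a ratio of 2 or 0.5. No doublet caller was run and no doublets were removed. Where a gene symbol was repeated (35 in all), its first row was read. Clustering used scanpy 1.11.5 and leidenalg 0.10.2 (2000 variable genes without the rule genes, 30 principal components, 15 neighbours, resolution 0.5). Genes, introns and starts came from GENCODE vM21 on GRCm38.p6. The calculations were tested on simulated counts. Named were the rule genes, the 25 highest and 15 lowest ratios to all others, the 12 highest and 8 lowest to Cd34 Cxcl13 and Cd34 Ebf1 barcodes (leaving out mitochondrial, ribosomal protein and unnamed gene models), and from 54 gene lists the largest ratios and most abundant members. Only part of these are printed, and a few list genes are not reported here. Tnfsf13b and the subcluster and single-barcode values were chosen after their values were seen. The members and the lists were chosen with earlier results of these data known.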

Additional observations from a re-analysis of the deposited data

How the results depend on the processing

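The number of members followed the rule's thresholds: 1767 with at least 2 of the 5 markers, 253 with at least 4, and 251 with the rule applied after thinning to 3000 UMIs. The counts of genes past 2-fold followed the minimum level. With 50 CPM in place of 20, 17 genes were higher and 56 lower than in all others, 33 higher than in Cd34 Cxcl13 and 122 higher than in Cd34 Ebf1 barcodes. With at least 10 UMIs as the only minimum the counts were 324, 2079, 375 and 701. The share of members in their leading cluster was 84.8% at resolution 0.3, 50.9% at resolution 1, 60.9% with another seed and 83.8% for members with at least 4 markers, so the clustering places the members less firmly than its interval says. With peaks above the median score alone, the CD138 share of peaks at the 26 genes was 26.9%, and the CD34 SP share was 24.6% with an interval above its 21.0% over all genes, as it was with 50 kb windows (24.1% against 22.3%). Of 680 ratios of single genes under alternatives, 600 stayed close, 74 moved in the same direction and 6 turned: Agr2 to 1.04 and Spink4 to 1.20 against others with Pdgfra alone, Spink4 to 1.10 without barcodes of the muscle, immune, mesothelial and epithelial clusters, and Reg3b to 0.877 without deep members and 0.787 without those clusters against Cd34 Cxcl13, and to 0.905 without those clusters against Cd34 Ebf1 barcodes. Leaving out those clusters was chosen after seeing the data. No paired analysis was possible because the single-cell data are 1 library and each ATAC-seq population came as 1 list, although its 2 libraries carry numbers. With 23 epithelium-like barcodes, background shares are known only coarsely.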
